A study of Mus musculus with 6 samples.

Results

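Core-binding factor is a transcription factor made of a RUNX protein, which reads DNA, and CBFβ, which does not touch DNA but stabilises the RUNX protein on it. The complex turns genes on or off according to the cofactor it meets. Groucho proteins of the TLE family bind the end of RUNX proteins and repress, and proteins of the ETO family are corepressors best known from a leukaemia fusion with RUNX1. In lymphocytes these factors silence Cd4, shape cytotoxic cells and set the balance of cytokine genes. The 10 genes described here are the subunits Cbfb, Runx1 and Runx3, the ETO genes Cbfa2t2, Cbfa2t3 and Runx1t1, and the Groucho genes Tle1, Tle2, Tle3 and Tle4. They were taken by name, through the Entrez number of each row, and each had 1 row among the 25206 rows measured.

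ILC2s, the group 2 innate lymphoid cells, lack antigen receptors and release type 2 cytokines when IL-33 reaches them. The knockout group (3 arrays) was an ILC2 line from C57BL/6J mice that carried LentiV2CRISPRGFP with a guide RNA against CBFβ, and the control group (3 arrays) was the same kind of line with a non-target guide. Both groups were grown with 10 ng/ml of the cytokines IL-2 and IL-33, both went through lentiviral transduction, and the GFP+ cells of both were sorted at 6 days. The labels give neither the sex and age of the mice nor whether the 3 samples of a group were separate cultures. The spread behind each p-value may therefore be technical. GFP marks cells that took up the construct and not cells that lost the gene, so each sample is a pool in which unedited cells may remain. In such pools fewer cells with a transcript and less of it per cell cannot be told apart.

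The values are on a log2 scale, with array medians between 3.57 and 3.63. Arrays of 1 group had Pearson correlations of 0.9946 to 0.996 over all rows, arrays of different groups 0.988 to 0.9908, and no arrays were identical. The label ILC2 was checked on 12 measured markers, of which 9 lay above 3.60, the median of all group means, in both groups. Il17rb, a receptor gene for IL-25, and Thy1, a surface marker gene, lay below it in both. Gata3, the lineage-defining factor, had means of 10.68 in knockout and 10.58 in control arrays, and the cytokine gene Il13 had 12.04 in knockout and 12.25 in control arrays, and neither passed the test described further on. Of the 12 markers 1 rose, 3 fell and 8 did not pass. That is 33.3% of the list, where 9.75% of all rows and 18.1% of those above the median level passed. Rora, a transcription factor gene needed for ILC2 development, read 5.62, 5.21 and 5.77 in knockout arrays, against 2.94, 3.62 and 3.39 in control arrays, a rise of 2.22 on the log2 scale (limma adjusted p = 0.000562). The knockout arrays were all higher, and the control mean of 3.32 lay below 3.60. Icos, a costimulatory receptor gene, fell by 0.78, the IL-7 receptor gene Il7r by 0.56 and the cytokine gene Il5 by 0.33, and Il5 passed in none of the 6 fits that left out 1 array. Of markers of other cells, 4 of 4 for B cells and 3 of 3 for ILC3s lay below 3.60 in both groups. So did 5 of 6 for mast cells and basophils and 5 of 6 for NK cells and ILC1s. For macrophages it was 4 of 5 and for T cells 5 of 8. Of the 5 stromal and epithelial markers 2 lay below 3.60 in both groups, and 3 lay above it in both, Col1a1, Krt8 and Epcam. Epcam, an epithelial marker gene, read 8.04, 7.99 and 7.98 in knockout arrays, against 7.83, 8.02 and 8.11 in control arrays. None of these 5 markers passed the test. Averaged over its 8 markers, the T cell list lay between 3.57 and 3.70 in knockout arrays and between 3.74 and 3.83 in control arrays, with Trac the 1 gene of the list past the test. The mast cell and basophil list lay between 2.69 and 2.86 in knockout arrays and between 3.18 and 3.27 in control arrays. There the 1 gene past the test was Cpa3, with means of 3.96 in knockout and 6.87 in control arrays, a fall of 2.91. The other 5 genes did not pass, and the median change of this list was -0.012. In the NK cell and ILC1 list, between 3.50 and 3.78 in knockout arrays and between 3.67 and 3.91 in control arrays, the 1 gene past the test was Prf1, the perforin gene, which fell by 0.49 and passed in 4 of 6 fits that left out 1 array. The part of such cells in the results was not tested.

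RUNX proteins bind the letters TGTGGT or TGCGGT, and genes of the RUNX family are known to carry such letters at their own promoters. The sequences of Runx1 and Runx3 are shown because these are the DNA-binding partners among the 10 genes. RefSeq windows of build GRCm38.p6, from 250 bases before to 50 bases after a start site, were at hand for 9 of the 10 genes, all but Runx1t1, 13 windows in all. TGTGGT on either strand stood in 2 of these windows and in 16.8% of all 32851 windows. The 2 were the most upstream start site of Runx1 and that of Runx3, and each held the motif 2 times on the strand opposite to the gene, read as ACCACA along the gene. The stretches of 30 bases around these pairs are given with ACCACA in capitals. That of Runx1 lies at chr16:92826026-92826055, minus strand, 20 to 49 bases into the transcript from the start site. That of Runx3 lies at chr4:135120502-135120531, plus strand, before the start site.
Runx1: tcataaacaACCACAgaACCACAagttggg
Runx3: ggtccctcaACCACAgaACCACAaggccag

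Both genes share the unbroken run of 18 bases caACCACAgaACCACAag, and 19 of the 30 bases shown are identical. This run, on either strand, was found in 4 of the 32851 windows, and the other 2 belong to genes not analysed here. The pair at this spacing, with any bases between, stood in 7 windows on either strand. TGCGGT stood in 6.45% of all windows and in 1 of the 13, the most upstream start site of Cbfa2t3. The window of Cbfb held neither motif, nor did those of Cbfa2t2, Tle1, Tle2, Tle3 and Tle4. A match describes letters only, and no binding was measured in this study. The 250 bases before each start site show the surroundings, with ACCACA in capitals: chr16:92826075-92826324, minus strand, for Runx1, and chr4:135120395-135120644, plus strand, for Runx3.
Runx1: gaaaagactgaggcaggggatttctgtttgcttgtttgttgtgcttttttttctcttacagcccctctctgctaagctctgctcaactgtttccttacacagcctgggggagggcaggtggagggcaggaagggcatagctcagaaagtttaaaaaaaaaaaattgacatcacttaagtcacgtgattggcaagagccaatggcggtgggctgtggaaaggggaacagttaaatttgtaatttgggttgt
Runx3: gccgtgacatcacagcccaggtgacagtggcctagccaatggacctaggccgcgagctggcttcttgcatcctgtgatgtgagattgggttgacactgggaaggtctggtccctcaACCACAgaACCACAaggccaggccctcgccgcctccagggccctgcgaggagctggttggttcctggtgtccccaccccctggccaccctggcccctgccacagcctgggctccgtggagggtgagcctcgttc

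**Figure D1:**
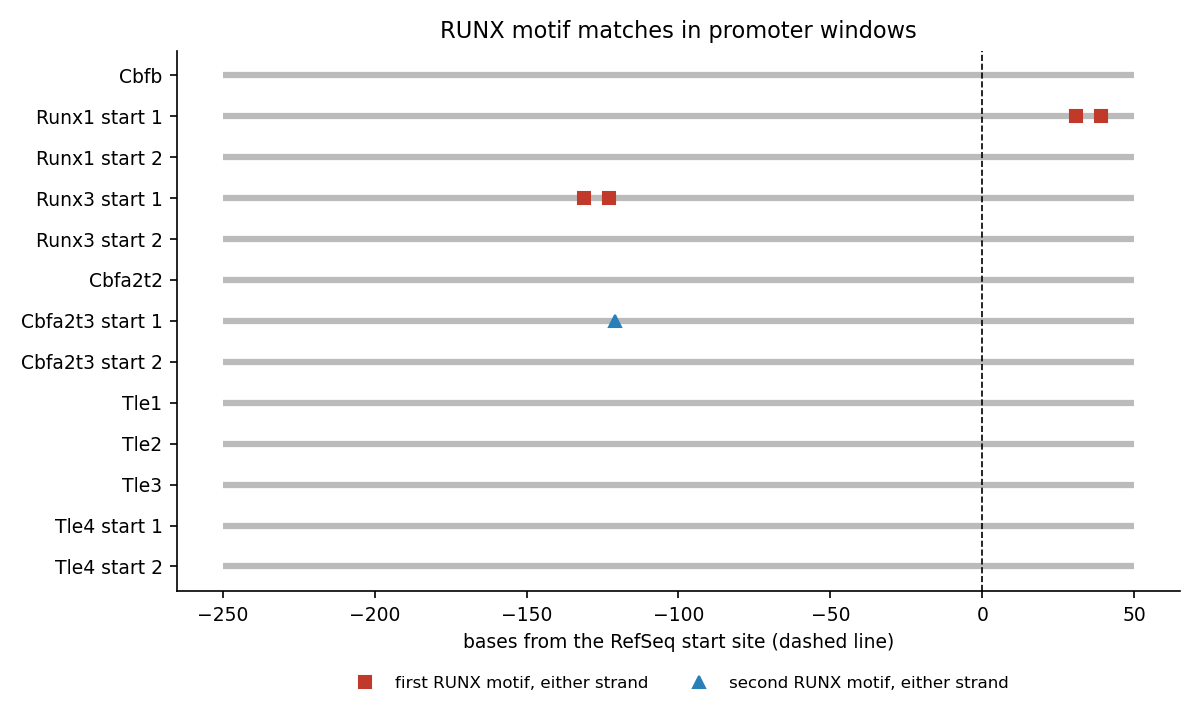
Positions of TGTGGT (squares) and TGCGGT (triangle), on either strand, in the 13 RefSeq promoter windows of 9 genes, as bases from the start site. Where a gene has 2 start sites, start 1 is the upstream one. The pairs of squares stand in the windows of Runx1 start 1 and Runx3 start 1.

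The comparison asks what a guide against CBFβ does to the transcripts of the complex itself and of its corepressors. Of the 10 genes 1 rose, Runx1, and 1 fell, Cbfb, while the other 8 did not pass. The test was limma with Benjamini-Hochberg adjustment over all rows and a threshold of 0.05. Over all rows 9.75% passed, 5.51% higher and 4.24% lower in the knockout. Of the 12603 rows above the median level 18.1% passed. Cbfb is the gene the guide was aimed at, so 1 of the other 9 genes passed. Over all rows 27.5% had arrays that did not overlap between the groups, and among the 10 genes these were 5, namely Cbfb, Runx1, Runx3, Tle1 and Tle2. The median change over the 10 genes was 0.18 on the log2 scale, and over all rows it was -0.0067. With every array 2457 rows passed. Fewer did whichever array was left out. Without knockout replicate 1, 2 or 3 the counts were 1837, 1478 and 1517. Without control replicate 1, 2 or 3 they were 1814, 1307 and 1565. The count among the 10 genes stayed at 1 rise and 1 fall in each of the 14 alternatives, 1 of which, a filter on low rows, left out Runx1t1, Tle1 and Tle4.

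**Figure D2:**
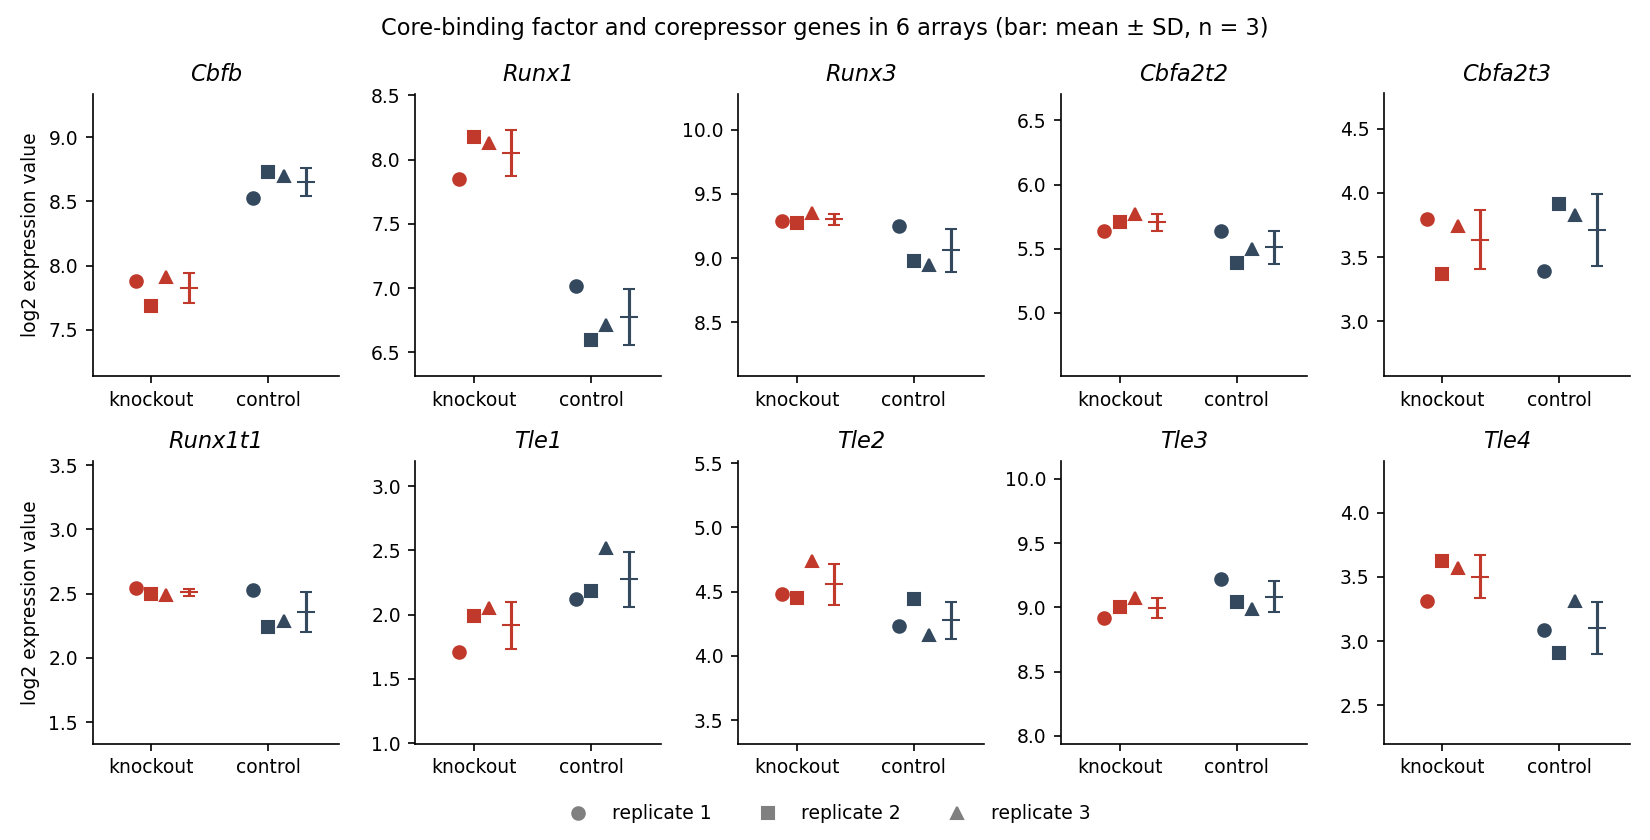
Log2 value of each gene on each array, knockout left and control right, each panel with an axis of the same length in log2 units. Symbols mark the replicate number, and bars give the mean and SD of 3 arrays. For Cbfb the knockout arrays lie between 7.69 and 7.91 and the control arrays between 8.53 and 8.73.

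Cbfb (Entrez gene 12400) encodes CBFβ, the subunit without DNA contact that every RUNX protein shares. It read 7.88, 7.69 and 7.91 in knockout replicates 1, 2 and 3, and 8.53, 8.73 and 8.70 in control replicates 1, 2 and 3. Every knockout array was below every control array. Its change was -0.83 (standard error 0.099, limma adjusted p = 0.00205), and leaving out each array in turn gave -0.89 to -0.76. On a linear scale, knockout replicates 1, 2 and 3 kept 58.5%, 51.3% and 59.7% of the mean control signal. Of all 25206 rows, 209 had a more negative difference than the targeted gene. Where the probes lie relative to the cut is not given in the sources used here, and an edited transcript can still be detected, so the value is no measure of editing or of CBFβ protein.

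Runx1 (Entrez gene 12394) encodes the RUNX protein known from blood stem cells and early T cells. It read 7.85, 8.18 and 8.13 in knockout arrays, and 7.02, 6.60 and 6.71 in control arrays. All knockout arrays were higher, and the gap between the lowest of them and the highest control array, replicate 1, was wider than the range within either group. The mean was 8.05 ± 0.18 in knockout and 6.78 ± 0.22 in control arrays (SD, n = 3 each), a rise of 1.28 with a 95% interval of 0.96 to 1.59 (limma adjusted p = 0.00121). That is 2.42-fold on a linear scale, with an interval of 1.95 to 3.01. Per array, the knockout signal was 210%, 265% and 255% of the mean control signal. Of all rows, 61 had a larger positive difference. The rise lay between 1.19 and 1.40 when each array was left out in turn.

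Runx3 (Entrez gene 12399) encodes the RUNX protein known from cytotoxic T cells and innate lymphocytes. It read 9.29, 9.27 and 9.35 in knockout arrays, and 9.25, 8.98 and 8.95 in control arrays. The knockout arrays were the 3 highest, but control replicate 1 lay within 0.02 of the lowest of them on the log2 scale. The means were 9.30 ± 0.042 in knockout and 9.06 ± 0.17 in control arrays (SD, n = 3 each). The difference of 0.24 (95% interval 0.010 to 0.48) did not pass, with a limma adjusted p of 0.198 and an unadjusted p of 0.0428. Without control replicate 1 the difference was 0.34 (limma adjusted p = 0.0647), and in none of the 14 alternatives did it pass. A change of up to 1.39-fold lies within the interval.

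Whether both DNA-binding partners changed alike was tested on the difference Runx1 minus Runx3 within each array. This difference was -1.44, -1.09 and -1.22 in knockout arrays, and -2.23, -2.38 and -2.24 in control arrays, on the log2 scale. The groups did not overlap. It was higher by 1.03 in the knockout, so the ratio of Runx1 to Runx3 signal was 2.05 times that in the control. The exact two-sided permutation test gave p = 0.1, the smallest value that 3 against 3 arrays allow. The signal ratio of Runx1 to Cbfb was 4.30 times that in the control, again with an exact permutation p of 0.1. Both genes were already known to lie apart between the groups, in opposite directions. Their difference therefore had to lie apart too, and this p adds nothing to the results of the single genes. The difference Runx1 minus Cbfb was -0.03, 0.49 and 0.22 in knockout arrays, against -1.51, -2.13 and -1.99 in control arrays. These ratios compare changes, since levels of different probes cannot be set against each other.

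**Figure D3:**
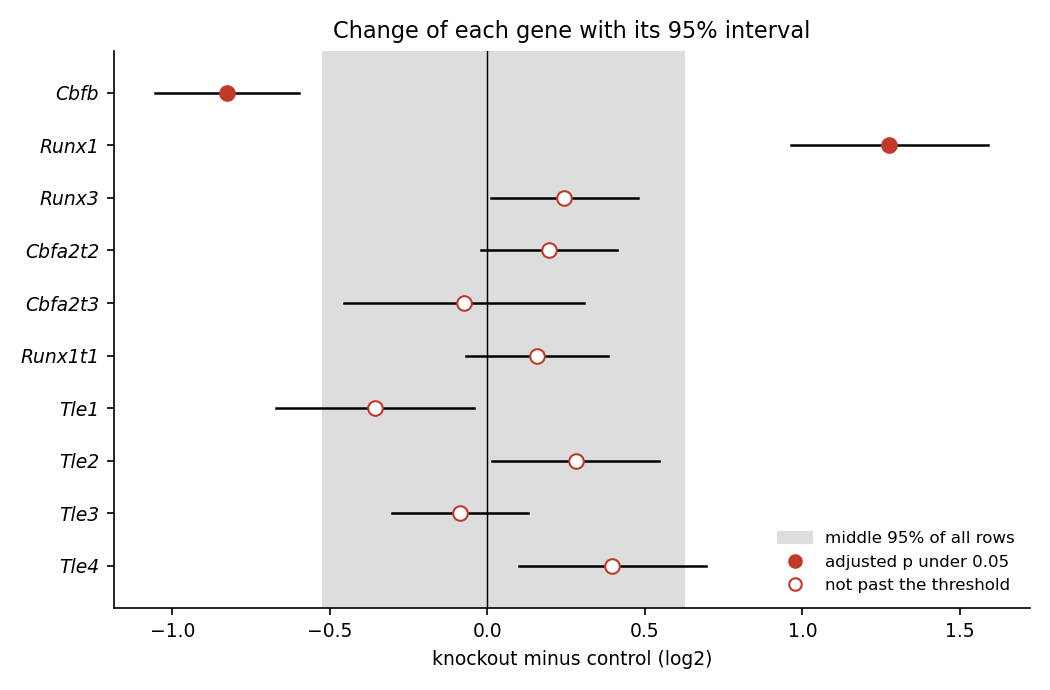
Change of each of the 10 genes, knockout minus control on the log2 scale, with its 95% interval from limma. Filled points passed the test (Cbfb at -0.83 and Runx1 at 1.28), and the grey band from -0.52 to 0.62 holds the middle 95% of the changes of all rows.

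The ETO genes encode corepressors that bring histone deacetylases to DNA-bound factors. Cbfa2t2 (Entrez gene 12396), known from germ cells and stem cells, read 5.64, 5.71 and 5.77 in knockout arrays, against 5.64, 5.39 and 5.50 in control arrays. Control replicate 1 equalled the lowest knockout array, and the difference of 0.20 did not pass (95% interval -0.019 to 0.41, limma adjusted p = 0.264). Cbfa2t3 (Entrez gene 12398), known from blood progenitors, read 3.80, 3.37 and 3.74 in knockout arrays, against 3.39, 3.91 and 3.83 in control arrays. The groups overlapped, with 2 of 3 control arrays above every knockout array, a difference of -0.073 (limma adjusted p = 0.857) and the widest spread of the 10 genes, a pooled SD of 0.26. Runx1t1 (Entrez gene 12395), the gene fused to RUNX1 in human leukaemia, read 2.54, 2.5 and 2.49 in knockout arrays, against 2.53, 2.24 and 2.29 in control arrays. Its difference of 0.16 (limma adjusted p = 0.410) comes from values under 3.60, where RMA, the method that combines an array's probes, compresses changes. No ETO gene passed, and none had an unadjusted p under 0.05.

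The Groucho genes encode corepressors that RUNX, HES and TCF proteins recruit. Tle3 (Entrez gene 21887) read 8.92, 9.0 and 9.07 in knockout arrays, against 9.22, 9.04 and 8.99 in control arrays. The groups overlapped, and the difference of -0.087 had an interval of -0.30 to 0.13 (limma adjusted p = 0.669). Tle2 (Entrez gene 21886) read 4.48, 4.45 and 4.74 in knockout arrays, against 4.23, 4.44 and 4.16 in control arrays. The groups were apart by 0.01 between knockout replicate 2 and control replicate 2, and the difference of 0.28 did not pass (95% interval 0.016 to 0.54, limma adjusted p = 0.192).

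Tle4 (Entrez gene 21888), known from blood stem cells, read 3.31, 3.62 and 3.57 in knockout arrays, against 3.09, 2.91 and 3.31 in control arrays. Knockout replicate 1 and control replicate 3 were equal, and the difference was 0.40 (limma adjusted p = 0.104). Tle1 (Entrez gene 21885) read 1.71, 1.99 and 2.05 in knockout arrays, against 2.12, 2.18 and 2.52 in control arrays. All knockout arrays of Tle1 were lower, and the difference of -0.36 did not pass (limma adjusted p = 0.161). Both genes lay under 3.60 in both groups, where a change can be understated. Of the 4 Groucho genes 3 had an unadjusted p under 0.05, Tle4 and Tle2 with higher values in the knockout and Tle1 with lower values, where 22.9% of all rows had one. The 7 corepressor genes together had adjusted p-values between 0.104 and 0.857, and none passed in any of their alternatives.

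Control replicate 1 lay closer to the knockout mean than the other control arrays did for 6 of the 10 genes, Cbfb, Runx1, Runx3, Cbfa2t2, Runx1t1 and Tle1. It was the closest in 39.4% of the rows that passed the test and in 35.1% of all rows. Array weights, 1 of the alternatives, gave it the lowest weight of the 6 arrays, 0.66, against 0.84 to 1.37 for the others. Its part in the results was not tested beyond these weights and leaving it out. Without control replicate 1, and with the weights, Cbfb and Runx1 still passed and Runx3 did not.

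The genes whose pattern over the 6 arrays was most like that of Runx1 were Thra, a thyroid hormone receptor, Rhou, a small GTPase, Ccr4, a chemokine receptor of type 2 lymphocytes, and Sgsh, a lysosomal sulfatase. Likeness was the root mean square difference between values centred on each gene's control mean. It was 0.0745 for Thra, 0.109 for Rhou, 0.110 for Ccr4 and 0.131 for Sgsh. Thra read 6.93, 7.28 and 7.37 in knockout arrays, against 6.17, 5.86 and 5.79 in control arrays. Like Runx1, it was lowest among the knockout arrays in replicate 1 and highest among the control arrays in replicate 1.

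Closest to Cbfb was Dennd3, which encodes an exchange factor for Rab GTPases, with a root mean square difference of 0.0392. Dennd3 read 6.30, 6.20 and 6.40 in knockout arrays, against 7.0, 7.16 and 7.12 in control arrays. Riok2, a kinase gene of ribosome assembly (0.0447), the lipase gene Lipf (0.0696) and Dennd4a, another exchange factor gene (0.0711), followed. Like Cbfb, all 4 were lowest in control replicate 1 among the control arrays, and all 4 passed the test in 6 of 6 fits that left out 1 array. These genes were picked out of all named rows for likeness over the same arrays. Their shared pattern and their passed tests come with that choice and are a description only.

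**Figure D4:**
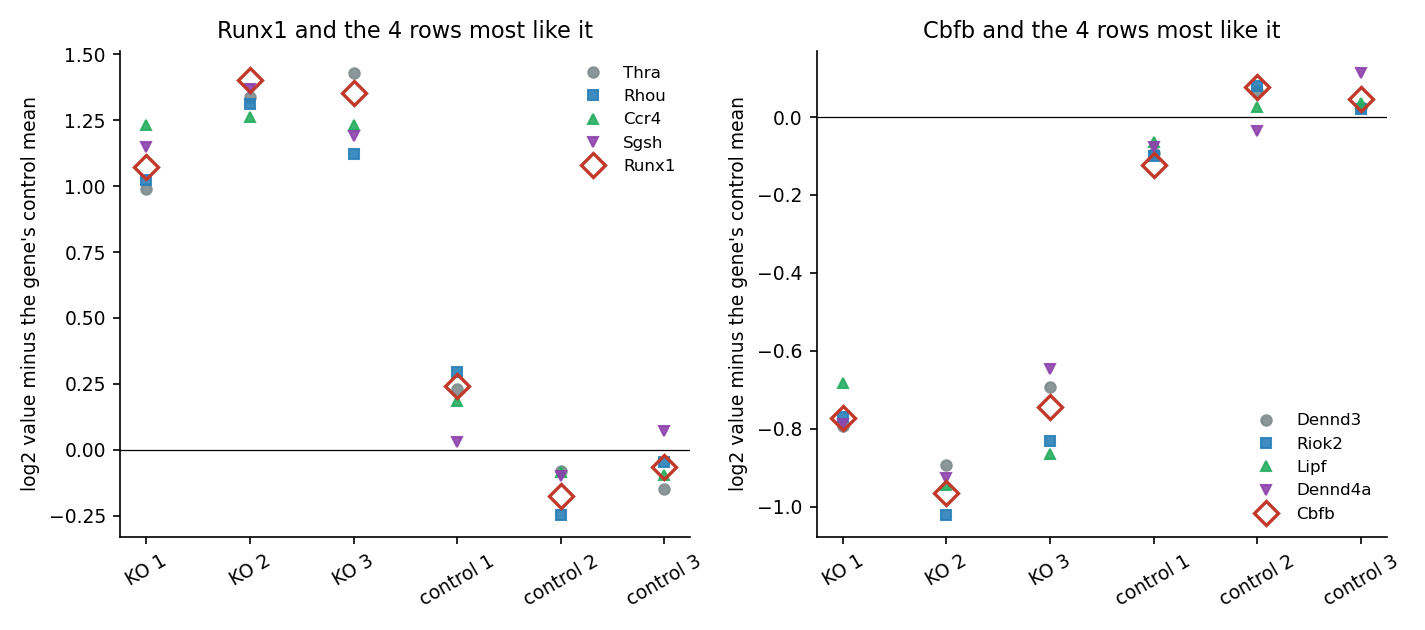
Log2 values minus each gene's control mean on the 6 arrays, for Runx1 (left) and Cbfb (right) and the 4 genes most like each. The open diamonds are Runx1 and Cbfb. The other genes differ from them by a root mean square of 0.0392 to 0.131 over the 6 arrays together, and single arrays can differ by more.

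Proteins that RUNX factors work with on DNA were taken as a list of coactivators and DNA-binding partners. Of 12 measured, 4 rose, 1 fell and 7 did not pass, with a median change of 0.11, where 9.75% of all rows passed and their median was -0.0067. All 12 lay above the median level, where 18.1% of rows passed. Smad3, which carries TGF-β signals and pairs with RUNX proteins, read 8.64, 8.69 and 8.62 in knockout arrays, against 7.93, 7.67 and 7.61 in control arrays. It rose by 0.91 (limma adjusted p = 0.00155), with no overlap. Ets1, which binds DNA side by side with RUNX1, read 8.47, 8.58 and 8.52 in knockout arrays, against 9.21, 9.27 and 9.29 in control arrays. It fell by 0.73 on the log2 scale, again with no overlap. The acetyltransferase gene Kat6b rose by 0.81, Men1, the menin gene, by 0.61, and the histone methyltransferase gene Kmt2a by 0.43. Kmt2a passed in 3 of 6 fits that left out 1 array.

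The enzymes and scaffolds that ETO and RUNX proteins recruit for repression were taken as another list. Of 14 measured, none passed in limma, 5 had an unadjusted p under 0.05, and the median change was 0.03. Over all rows 9.75% passed and 22.9% had an unadjusted p under 0.05, and over the rows above the median level, where all 14 lay, these shares were 18.1% and 37.2%. The histone deacetylase gene Hdac4 read 7.46, 7.80 and 7.59 in knockout arrays, against 7.29, 7.18 and 7.20 in control arrays (limma adjusted p = 0.0534). The arginine methyltransferase gene Prmt6 read 4.75, 4.90 and 4.95 in knockout arrays, against 5.30, 5.40 and 5.08 in control arrays (limma adjusted p = 0.0601). Both lay apart between the groups. Without knockout replicate 1 Hdac4 passed, without control replicate 3 Prmt6 did, and a trended and robust prior called 4 of the 14. Differences of 0.33 for the demethylase gene Kdm1a, 0.26 for the scaffold gene Sin3a and 0.21 for Gps2, a subunit of the NCoR complex, did not pass.

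Factors linked with Groucho proteins, among them HES and HEY factors, and short Groucho relatives made up another list. Whether each factor, Hey1 included, recruits Groucho was not tested. Of 14 measured genes, 2 rose, 3 fell and 9 did not pass, with a median change of -0.035. That is 35.7% of the list, where 9.75% of all rows and 18.1% of those above the median level passed, and 8 of the 14 genes lay above 3.60 in both groups. The repressor genes Hey1 and Hes1, both known as Notch targets, were the rises. Hes1 read 5.62, 5.39 and 5.85 in knockout arrays, against 4.73, 5.09 and 4.66 in control arrays. Hhex, a homeobox repressor gene, read 5.24, 5.49 and 4.89 in knockout arrays, against 6.32, 6.14 and 6.15 in control arrays. Hey1 rose by 1.88 (limma adjusted p = 0.000614) and Hes1 by 0.79 (limma adjusted p = 0.0150), and Hhex changed by -1.0 (limma adjusted p = 0.00547). Lef1, a partner of β-catenin, fell by 0.44 and Prdm1, the Blimp-1 gene, fell by 0.49 on the log2 scale. Hes1 passed in 4 of 6 fits that left out 1 array, and Lef1 and Prdm1 each in 5.

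Of 9 genes whose products degrade or hold back core-binding factor subunits, none rose, 3 fell and 6 did not pass, with a median change of 0.04. That is 33.3% of the list, where 9.75% of all rows passed and 18.1% of the rows above the median level, where all 9 lay. Smurf1, a ubiquitin ligase that acts on RUNX proteins, read 6.51, 6.31 and 6.45 in knockout arrays, against 7.03, 6.89 and 6.98 in control arrays (limma adjusted p = 0.00839). Its knockout arrays were all lower, and it passed in 6 of 6 fits that left out 1 array. Mdm2, the ligase best known for p53, fell by 0.41 and Flna, the filamin A gene, whose product holds CBFβ in the cytoplasm, fell by 0.34. Mdm2 passed in 1 of those 6 fits and Flna in none, and the list had 1 fall when knockout replicate 1 or 2 or any control array was left out. Cdc20 and Fzr1, activators of the anaphase-promoting complex, differed by 0.22 and 0.28 and did not pass.

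Genes known from other cells to be bound by RUNX factors made up the last list. Of 28 measured, 3 rose, 8 fell and 17 did not pass, with a median change of -0.15. That is 39.3% of the list, where 9.75% of all rows and 18.1% of those above the median level passed, and 15 of the 28 genes lay above 3.60 in both groups. Ctla4, an inhibitory receptor gene, read 6.74, 6.73 and 7.13 in knockout arrays, against 8.94, 9.19 and 8.86 in control arrays, the farthest fall of the list. The transcription factor gene Bcl11b read 7.04, 7.26 and 6.97 in knockout arrays, against 6.03, 5.93 and 5.90 in control arrays, a rise of 1.14. Gfi1, a zinc finger repressor gene, rose by 0.65, the cell cycle inhibitor gene Cdkn1a fell by 0.74, and Il2rb, a receptor chain for IL-2 and IL-15, fell by 0.45 on the log2 scale. These 5 passed in 6 of 6 fits that left out 1 array. Without control replicate 2 the list had 2 rises and 4 falls.

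**Figure D5:**
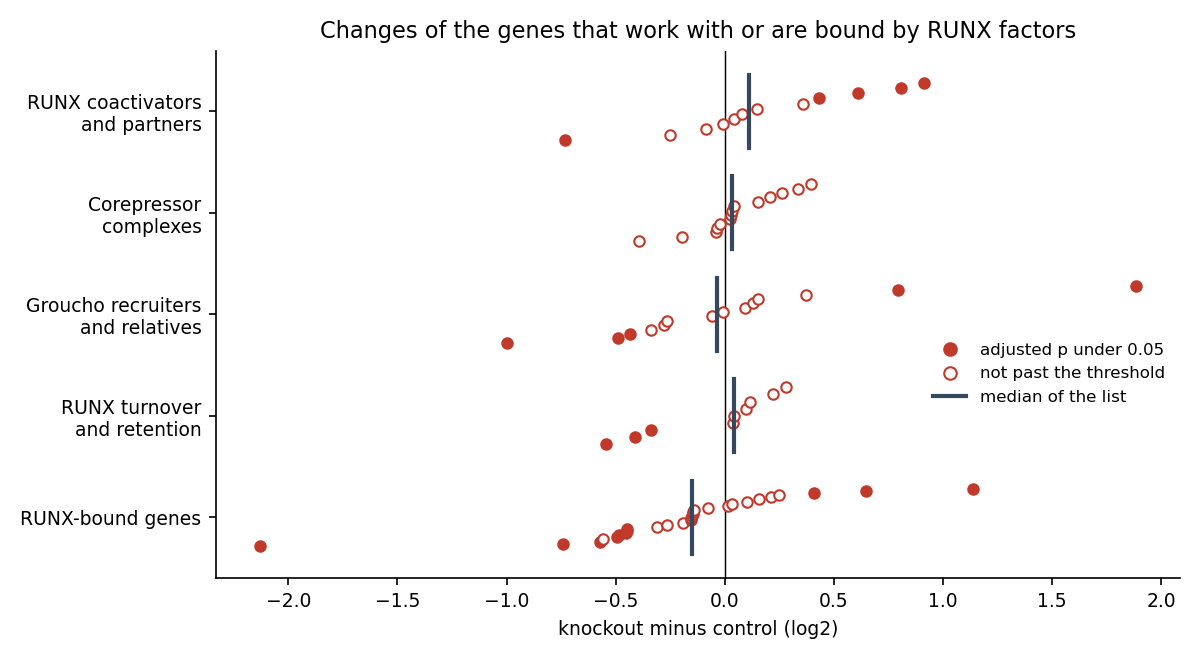
Change of each measured gene, knockout minus control on the log2 scale, in 5 lists, with filled points for genes past the test and a dark bar at the list's median. The medians lie between -0.15 and 0.11, and no filled point stands among the corepressor complexes.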

How the data were processed

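Biotin-labelled total RNA, isolated with Trizol, was measured on 1-colour arrays, per the labels' protocols. The deposited values are log2 expression, 1 row per Entrez gene. RMA and limma 3.14.4 appear in the submitters' processing notes, with no role given. RMA subtracts background, makes the arrays' distributions equal and combines the probes of a row. The log2 scale was read from the values (0.66 to 12.51). There are no detection calls. Making distributions equal would hide a change common to most genes, though the medians of the deposited arrays still ran from 3.57 to 3.63. Of the 25206 rows 23185 have 1 gene symbol and 2021 none.

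Values were used as deposited. The test was limma 3.58.1 in R 4.3.3, knockout minus control, two-sided, with Benjamini-Hochberg adjustment over every row and calls at 0.05, and it was tested on simulated data. Pairs of genes were compared by exact permutation over arrays. Arrays with the same replicate number did not deviate together (correlations 0.0249, 0.00669 and 0.0539), so the main test has no block. Promoter windows came from RefSeq (GRCm38.p6), and other coordinates were not used.

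The 10 genes and all lists were chosen with earlier results of these data known. Named are the 10 genes, up to 5 genes per list with the smallest adjusted p, 4 rows most like Cbfb and Runx1, and ILC2 markers. Cpa3, Trac, Prf1 and Epcam were named after their values were seen. Alternatives were a replicate block, leaving out each array, quantile normalisation again, centring, a filter on low rows, a trended and robust prior, array weights, no moderation and named rows alone.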

Additional observations from a re-analysis of the deposited data

How the results depend on the processing

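Cbfb, Runx1 and Runx3 kept their direction and their side of the threshold in all 14 alternatives, as did the count of 2 changed genes among the 10. With the replicate number as a block 1745 rows passed, against 2457 without it, and the block changed no call among the 10 genes (adjusted p = 0.0123 for Cbfb and 0.0108 for Runx1). The count of all rows was 1254 in an ordinary test without moderation, 1307 to 1837 when each array was left out in turn, 3516 with a trended and robust prior, and 3517 of 12603 (27.9%) when the rows above the median level were fitted alone. Cbfa2t3, which did not pass, ranged between -0.23 and 0.06 when each array was left out, with a positive sign without control replicate 2 (0.027) and without knockout replicate 2 (0.06). The difference Runx1 minus Runx3 changed by 0.95 to 1.13 in its 8 alternatives. The exact permutation p was 0.1 in each, the smallest value possible there, so it says nothing on stability. Counts in the lists moved more. The corepressor complexes had up to 4 changed genes (trended and robust prior, or rows above the median level alone) against 0. The turnover genes had 1 against 3 (with the replicate block, for example). In the ordinary test, the list of factors linked with Groucho had 2 against 5 and the RUNX-bound genes 7 against 11. The fits that left out an array hold fewer samples, and the ordinary test has fewer degrees of freedom. Only 3 arrays per group limit the precision, and values under 3.60 carry no detection call. Of the ILC2 markers that did not pass, 4 with differences of -0.037 (Arg1), -0.023 (Il17rb), -0.0067 (Klrg1) and 0.0067 (Thy1) changed sign in some alternatives. When each array was left out, Arg1 ranged between -0.13 and 0.032, Il17rb between -0.082 and 0.088 (0.028 without control replicate 3), Klrg1 between -0.025 and 0.010, and Thy1 between -0.062 and 0.048 (-0.042 without knockout replicate 3). Arg1 was at 0.012 with quantile normalisation again and Klrg1 at 0 after centring. Of the other ILC2 markers that did not pass, Il13 passed in 3 of 14 alternatives and Il2ra in 2, each with lower values in the knockout. Gata3 and Ptprc passed in none. Over all alternatives, list genes included, there were 913 values. Of these, 818 kept their direction and call or stayed within 1.5 times, 42 lost a call and 20 gained one. In another 10 the sign differed or the value was 0, and 23 counts moved by more than 1.5 times.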
